A study of Mus musculus with 2 samples.

Results

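The genes described here are 39 mouse genes that encode scaffold and adaptor proteins of the postsynaptic density, chosen by name from textbook knowledge of that structure and not by their level. Earlier results of these data were known when they were chosen. All 39 were found among the 43346 genes of the deposited gene tables. They fall into 12 groups by role, led by the MAGUK, GKAP, Shank and Homer proteins that form the layers of the density.

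The postsynaptic density is a protein sheet beneath the membrane of excitatory synapses. MAGUK proteins bind glutamate receptors and channels at the membrane, GKAP proteins link them to Shank proteins in a deeper layer, and Homer proteins join Shank to metabotropic glutamate receptors and to calcium stores. Around this core, PDZ adaptors move receptors, regulators of small GTPases control the spine, and actin-linked proteins tie the sheet to the cytoskeleton.

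The samples were forebrain tissue of newborn B6NCrl mice, pup 1 (replicate 1) and pup 3 (replicate 2). They were taken on postnatal day 0 for total RNA-seq, 1 library from each of these 2 animals. Both pups form 1 group with no treatment, altered gene or second tissue given in the labels, their sex was not collected, and both libraries carry the same donor identifier. Each library was made from 10 ng of RNA above 200 nt with added spike-in RNAs. The smallest two-sided p of an exact sign-flip test is 0.5 at n = 2, so no test is given, and differences are read against the pup spread, which holds biological and technical variation together.

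Levels are deposited TPM (a level divided by transcript length and scaled to the same total in each library, so that genes can be compared with each other). The libraries held 40066386 expected counts in pup 1 and 40431595 in pup 3, of which the 39 genes took 105074 (0.262%) and 91675 (0.227%). Forebrain markers were present, with Dlx1 at 120 TPM in pup 1 and 87.0 TPM in pup 3 and Emx1 at 24.98 and 34.1 TPM, and 0 of 4 midbrain and hindbrain markers reached 1 TPM in both pups (Hoxa2 and Hoxb3 were at 0). Summed neuronal markers stood at 2584 TPM in pup 1 and 2194 TPM in pup 3, summed astrocyte markers at 284 and 203 TPM. In such bulk tissue, fewer cells of a type and less RNA per cell cannot be told apart.

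All 39 scaffold genes were detected, that is, at 1 TPM or more in both pups, against 60.7% of 21461 nuclear protein-coding genes. At 10 TPM or more in both pups stood 22 of them, against a background of 36.3%, and 3 stood above 100 TPM in both pups. Their median level was 13.0 TPM (14.8 TPM in pup 1 and 11.8 TPM in pup 3), at percentile 43.2 of the detected protein-coding genes, whose own median was 17.0 TPM. Expected counts of single members ran between 222 and 15221 in pup 1 and between 196 and 13176 in pup 3, so no member rested on a handful of reads.

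**Figure D1:**
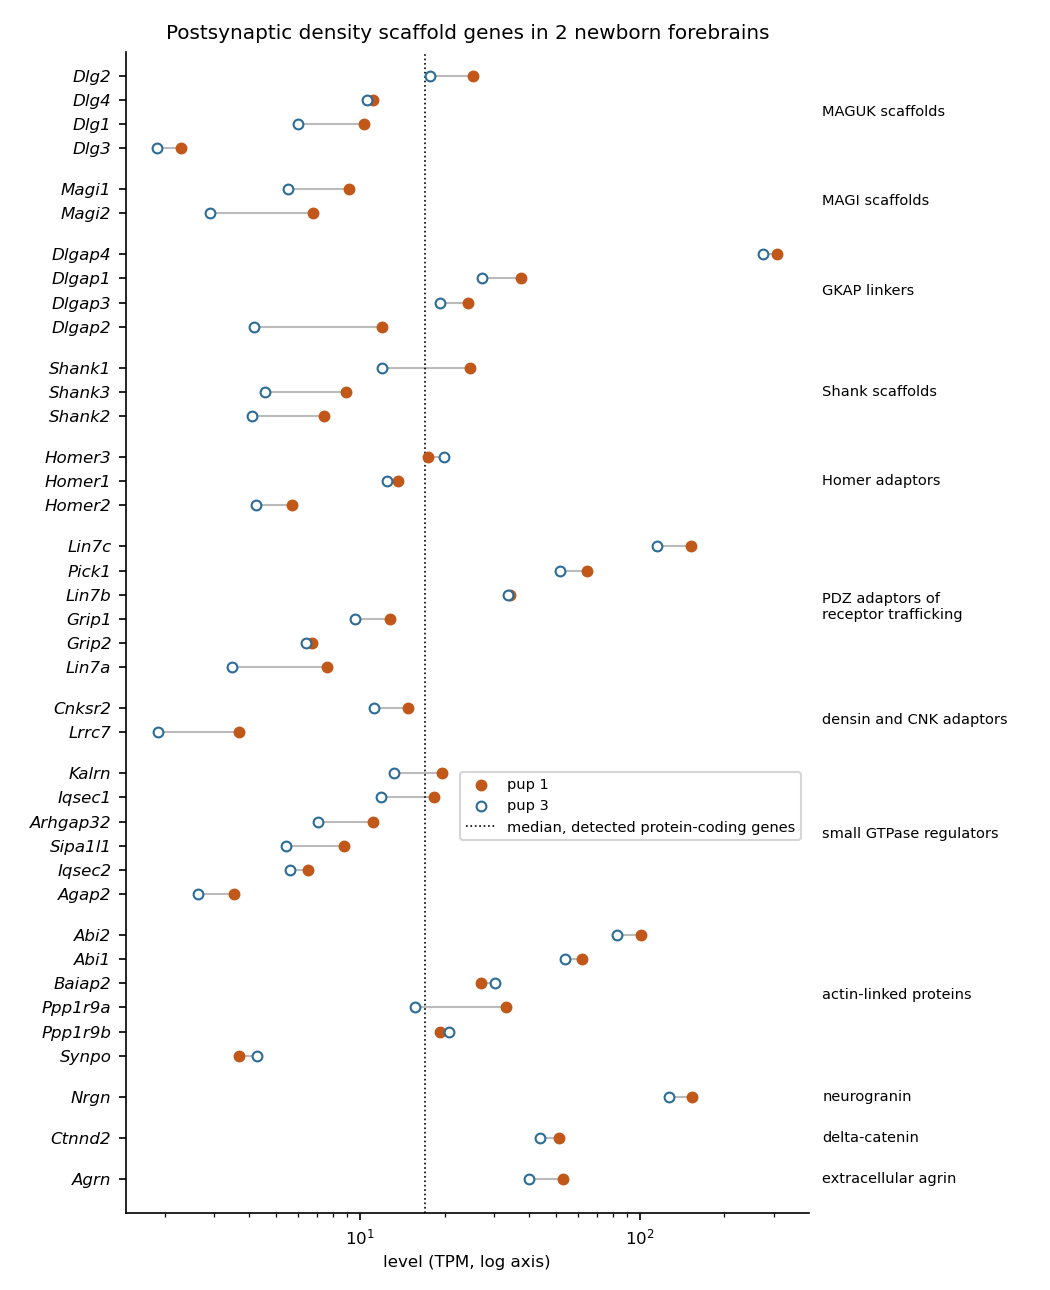
Level of each scaffold gene (TPM, log axis) in pup 1 (filled orange) and pup 3 (open blue), grouped by role and ordered by mean level within a role; the dotted line at 17.0 TPM is the median over detected protein-coding genes. Dlgap4, at 309 and 274 TPM, stands apart on the right, and Dlg3, at 2.29 and 1.88 TPM, is the lowest.

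The MAGUK scaffolds, which gather glutamate receptors through their PDZ domains, were led by Dlg2 (PSD-93), at 25.3 TPM in pup 1 and 17.8 TPM in pup 3. Dlg4 (PSD-95), the best-known protein of the density, had 11.1 TPM in pup 1 and 10.6 TPM in pup 3. Dlg1 (SAP97), which also serves receptor delivery, had 10.3 TPM in pup 1 and 5.98 TPM in pup 3. Dlg4 was thus nearly equal in the pups, whereas Dlg1 was lower in pup 3 and its ratio to Dlg4, 0.928 in pup 1 and 0.569 in pup 3, was not beyond the pup spread. Dlg3 (SAP102, X-linked) was the lowest of all 39 genes at 2.29 TPM in pup 1 and 1.88 TPM in pup 3 (2.08 ± 0.290 TPM, SD, n = 2). Dlg2 exceeded Dlg3 10.6 times in pup 1 and 9.03 times in pup 3, and Dlg4 2.27 and 1.67 times. A ratio counts here as beyond the pup spread where the mean of its log2 values exceeds 3 SD over the pups with 1 sign. All ratios between genes are of TPM + 0.1. Both Dlg2 ratios met that rule, Dlg2 over Dlg4 narrowly (mean log2 0.96, SD 0.31) and not in every setting tried. How many pairs of genes would meet the rule without a true difference was not tested.

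The transcripts behind these gene levels differed within the family. Long complete coding transcripts, those with an annotated start and stop codon and a coding length of at least 65% of the gene's longest complete one, made up 72.8% of Dlg4 TPM in pup 1 and 83.9% in pup 3. The same class made up 58.2% and 53.7% of Dlg1, and 50.3% and 30.7% of Dlg3. For Dlg2 it came to 20.7% in pup 1 and 23.7% in pup 3. Dlg4-201 led Dlg4 at 61.5% in pup 1 and 73.4% in pup 3, and Dlg1-206 led Dlg1 at 27.0% and 43.8%, both long coding forms. The leading Dlg2 transcript, Dlg2-209, is annotated as a retained intron and held 34.8% of Dlg2 TPM in pup 1 and 30.1% in pup 3. For Dlg3 the leading transcript changed: Dlg3-201, a coding form, held 50.3% in pup 1 and was listed at 0 in pup 3, and Dlg3-208, a processed transcript without coding sequence, held 41.3% in pup 1 and 69.3% in pup 3. Dlg3 had 222 and 196 expected counts in all, so its transcript shares rest on few reads. Another coding form, Dlg3-204, was listed at 0 in pup 1 and held 30.7% in pup 3. Counted over long complete coding transcripts alone, Dlg4 was the highest MAGUK at 8.07 TPM in pup 1 and 8.87 TPM in pup 3, and Dlg2 had 5.23 and 4.22 TPM; their ratio, 0.652 and 0.482, was not beyond the pup spread.

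The GKAP linkers, which bind the guanylate kinase domain of MAGUK proteins and the PDZ domain of Shank proteins, held the highest member. Dlgap4 (ENSMUSG00000061689.11, chr2:156613705-156764363 on mm10, plus strand) had 309 TPM in pup 1 and 274 TPM in pup 3 (292 ± 25.0 TPM, SD, n = 2). Dlgap1 (GKAP itself) had 37.4 TPM in pup 1 and 27.1 TPM in pup 3, Dlgap3 (SAPAP3) had 24.3 and 19.3 TPM, and Dlgap2 had 12.0 and 4.19 TPM. Dlgap1 lay above Dlgap3 by 1.54 and 1.41 times, beyond the pup spread, whereas its distance to Dlgap2, 3.10 and 6.35 times, varied too much between the pups to meet the rule. At the gene level Dlgap1 came to 0.121 of Dlgap4 in pup 1 and 0.0994 in pup 3.

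Most of the Dlgap4 level lay in short forms. Dlgap4-204, a transcript of 1595 nt whose complete coding sequence of 855 nt is 28.7% of the longest, held 42.2% of Dlgap4 TPM in pup 1 and 45.4% in pup 3. It shares 1463 nt with the long form Dlgap4-205, all between positions 2061 and 3603 of that transcript's 4840 nt, so it lacks the first part of the long coding sequence. Dlgap4-214, of 616 nt and without a complete coding sequence, held 19.4% and 21.3%, and the processed transcript Dlgap4-207 held 18.2% and 13.2%. Long complete coding transcripts held 4.37% of Dlgap4 TPM in pup 1 and 3.69% in pup 3, or 13.5 and 10.1 TPM, and 15.8% and 13.4% of its expected counts. On that scale Dlgap1 lay above Dlgap4, at 1.97 times in pup 1 and 2.06 times in pup 3, and Dlgap3 did so at 1.79 and 1.90 times, all beyond the pup spread. Dlgap4 was thus above Dlgap1 and Dlgap3 over all transcripts and below both over long complete coding ones. In Dlgap2 the leading transcript changed between the pups. Dlgap2-207, a retained intron, held 25.8% in pup 1 and 20.5% in pup 3, and Dlgap2-203, a long coding form, held 23.4% and 31.2%.

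The Shank scaffolds, which form the deep layer of the density by self-assembly, were led by Shank1 at 24.7 TPM in pup 1 and 12.0 TPM in pup 3. Shank3, the member whose loss in humans is linked to Phelan-McDermid syndrome, had 8.92 TPM in pup 1 and 4.58 TPM in pup 3. Shank2 had 7.45 and 4.10 TPM. Each Shank gene was thus higher in pup 1, and the order held within both pups: Shank1 exceeded Shank2 3.29 and 2.88 times and Shank3 2.75 and 2.58 times, beyond the pup spread, while Shank2 and Shank3 were not separated (0.837 and 0.897). Shank1-203, the form with the longest complete coding sequence (6501 nt), held 96.0% of Shank1 TPM in pup 1 and 97.3% in pup 3. In Shank2 the leading form was Shank2-202, whose coding sequence is 79.96% of the longest, at 72.7% and 75.7%.

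Shank3 was different from both at the transcript level. Shank3-207, a fragment of 719 nt with 3 exons and no annotated stop codon, held 86.6% of Shank3 TPM in pup 1 and 80.8% in pup 3. It shares 32.7% of its bases with the long form Shank3-201. Because it is short, its share of reads was smaller: it took 119 of 328 expected counts in pup 1 and 64.5 of 223 in pup 3, and long complete coding transcripts took 62.8% and 68.8% of Shank3 counts. Their level was 1.17 TPM in pup 1 and 0.77 TPM in pup 3. On long complete coding transcripts, Shank1 exceeded Shank3 18.8 times in pup 1 and 13.6 times in pup 3, and Shank2 exceeded Shank3 5.89 and 4.83 times, all beyond the pup spread. With a limit of 80% in place of 65%, Shank2-202 at 79.96% no longer counted, Shank2 lay below Shank3, at 0.59 and 0.25 TPM against 1.17 and 0.77 TPM, and the mean log2 ratio of Shank2 over Shank3 was -1.10, so the direction between them rests on that 1 transcript.

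The Homer adaptors bind Shank, metabotropic glutamate receptors and receptors on calcium stores through an N-terminal EVH1 domain, and the long forms join into multimers through a C-terminal coiled coil. Homer3 had 17.5 TPM in pup 1 and 19.9 TPM in pup 3, Homer1 had 13.6 and 12.5 TPM, and Homer2 had 5.72 and 4.24 TPM. Homer1 exceeded Homer2 2.35 and 2.90 times, beyond the pup spread, and its ratio to Homer3 (0.779 and 0.629) was not. The exons of Homer3 overlap those of Ddx49, a helicase gene on the opposite strand, over 874 nt or 25.4% of its exonic length. Ddx49 stood at 42.9 TPM in pup 1 and 45.7 TPM in pup 3, and whether counting used strand is not stated in the labels or headers, so reads of the overlap cannot be told apart.

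Homer1 makes long forms and short ones that keep the EVH1 domain but lack the coiled coil, and the known short form Homer1a ends by reading on into the intron after the shared exons. The coding sequences below run 5′ to 3′ from GENCODE M21 transcripts on mm10 (plus strand) and show where 3 short forms part from the long form Homer1-202; lower case marks the 18 shared bases and capitals the bases after the point of parting, up to the stop codon for Homer1-204 and the first 45 bases for the others.
Homer1-202: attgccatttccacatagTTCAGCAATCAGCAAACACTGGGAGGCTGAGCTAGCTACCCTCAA
Homer1-206: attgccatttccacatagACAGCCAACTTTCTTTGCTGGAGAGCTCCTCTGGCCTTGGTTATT
Homer1-207: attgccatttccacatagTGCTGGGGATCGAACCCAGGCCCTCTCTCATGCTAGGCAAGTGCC
Homer1-204: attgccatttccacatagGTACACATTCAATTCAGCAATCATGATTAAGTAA
The capitals lie at chr13:93387524-93387568 for Homer1-202, chr13:93366278-93366322 for Homer1-206, chr13:93386345-93386389 for Homer1-207 and chr13:93356080-93356113 for Homer1-204. Homer1-204 is the form that runs on from the shared exon without a splice, as Homer1a does, and its coding sequence is 558 nt long.

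The 3 long Homer1 forms, with coding sequences of 1062 to 1110 nt, together held 76.0% of Homer1 TPM in pup 1 and 75.4% in pup 3 (75.7 ± 0.431%, SD, n = 2). The 8 annotated shorter coding forms, of 540 to 699 nt, together held 24.0% and 24.6%, so the split between long and short forms was nearly equal in the pups. Of all 11 Homer1 transcripts, 5 were listed with any TPM in both pups. Homer1-202 led with 56.8% in pup 1 and 54.1% in pup 3. Among the short forms, Homer1-206 held 10.6% in pup 1 and 19.1% in pup 3, Homer1-207 held 10.6% and 3.29%, and Homer1-204 held 2.81% and 2.20%. Homer1-206 and Homer1-207 were thus level in pup 1 and apart in pup 3. The Homer1a-like Homer1-204, with 53.3 and 43.5 expected counts, was the lowest of these 3 named short forms in both pups.

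**Figure D2:**
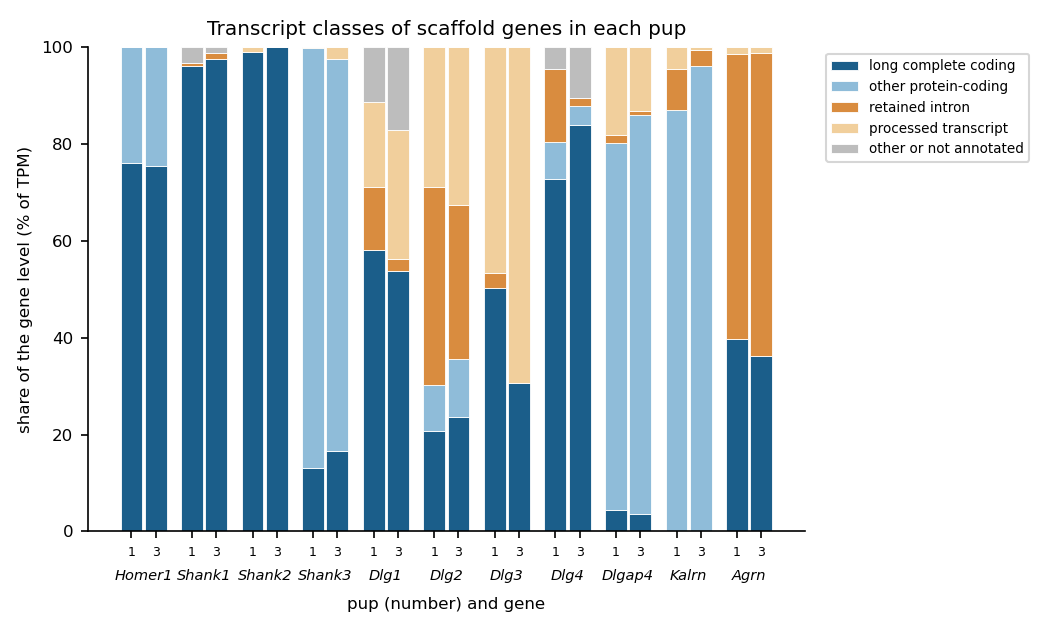
Share of each gene's TPM (%) in 5 classes of transcripts, pup 1 left of pup 3, for 11 scaffold genes. Shank1 and Shank2 consist almost wholly of long complete coding transcripts (dark blue), Homer1 has 76.0% and 75.4% in that class, and Shank3, Dlgap4 and Kalrn lie mostly in other coding transcripts (light blue).

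The MAGI scaffolds, large relatives of the MAGUK proteins with several PDZ and WW domains, were low. Magi1 had 9.13 TPM in pup 1 and 5.54 TPM in pup 3, and Magi2 had 6.76 and 2.91 TPM. Their ratio, 1.35 and 1.87, was not beyond the pup spread.

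The PDZ adaptors of receptor trafficking covered a wide range. Lin7c, one of the small partners of CASK in receptor sorting, had 151 TPM in pup 1 and 115 TPM in pup 3, whereas its paralog Lin7a had 7.60 and 3.48 TPM. Lin7b stood between them at 34.4 and 33.8 TPM, and all 3 Lin7 ratios were beyond the pup spread. Pick1, which binds AMPA receptor subunits and drives their internalisation, had 64.4 TPM in pup 1 and 51.5 TPM in pup 3. Grip1 and Grip2, which bind the same receptors, were lower: Grip1 had 12.8 and 9.61 TPM and Grip2 had 6.74 and 6.38 TPM, a ratio of 1.886 and 1.498, beyond the pup spread. The leading Grip1 transcript was Grip1-205 in pup 1 and Grip1-201 in pup 3, both long coding forms. Grip1-205 held 40.2% of Grip1 TPM in pup 1 and 30.6% in pup 3, and Grip1-201 held 21.1% and 36.4%. In the small group of densin and CNK adaptors, Cnksr2, a scaffold of Ras signalling, had 14.8 and 11.2 TPM, and Lrrc7 (densin), which binds CaMKII, had 3.68 and 1.89 TPM.

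Among the 6 regulators of small GTPases, Kalrn (kalirin, an exchange factor for Rac that enlarges spines) was the highest at 19.6 TPM in pup 1 and 13.2 TPM in pup 3, and Agap2 was the lowest at 3.53 and 2.63 TPM. Iqsec1, an exchange factor for Arf6, exceeded its X-linked paralog Iqsec2 2.80 and 2.09 times, beyond the pup spread. The leading Iqsec2 transcript, Iqsec2-205, is a processed transcript without coding sequence and held 33.9% of Iqsec2 TPM in pup 1 and 49.1% in pup 3. The Kalrn level came from shorter forms. Kalrn-210, of 2693 nt with a complete coding sequence of 2022 nt (22.7% of the longest), held 45.6% in pup 1 and 63.2% in pup 3. Kalrn-212, with a coding sequence of 3885 nt, held 17.8% and 14.96%. Kalrn-201, which has the longest complete coding sequence at 8892 nt, was listed at 0 in both pups, and no other complete form reached 65% of it. Kalrn-202, at 56.1% of the longest, had 0.13 TPM in each pup.

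The actin-linked proteins were led by Abi2 at 100.3 TPM in pup 1 and 82.5 TPM in pup 3 and by Abi1 at 62.1 and 54.1 TPM, both subunits of the WAVE complex that starts branched actin. Abi1 came to 0.620 and 0.656 of Abi2, beyond the pup spread. Synpo (synaptopodin, of the spine apparatus) was the lowest at 3.69 TPM in pup 1 and 4.28 TPM in pup 3. The neurabins, which bring protein phosphatase 1 to actin, differed in their behaviour: Ppp1r9a (neurabin) had 33.2 TPM in pup 1 and 15.7 TPM in pup 3, while Ppp1r9b (spinophilin) had 19.4 and 20.7 TPM. Neither led in both pups, with a ratio of 1.71 in pup 1 and 0.759 in pup 3. In Ppp1r9a the leading transcript also changed: Ppp1r9a-211, without a complete coding sequence, held 42.1% in pup 1 and 36.1% in pup 3, and Ppp1r9a-201, a long coding form, held 32.9% and 42.0%.

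Baiap2 (IRSp53), which bends membranes and binds the WAVE complex and Shank, had 26.9 TPM in pup 1 and 30.2 TPM in pup 3. Its main coding forms share most of their sequence and end in different tails, which decide the last residues of the protein. The sequences below (GENCODE M21, mm10, plus strand, 5′ to 3′) show 18 shared bases in lower case and the tails in capitals, whole to the stop codon for all but Baiap2-201, which is given to its first 45 bases.
Baiap2-202: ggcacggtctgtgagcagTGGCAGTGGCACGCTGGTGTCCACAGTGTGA
Baiap2-201: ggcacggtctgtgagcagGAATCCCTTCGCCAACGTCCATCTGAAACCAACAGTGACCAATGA
Baiap2-205: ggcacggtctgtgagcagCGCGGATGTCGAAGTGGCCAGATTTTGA
Baiap2-204: ggcacggtctgtgagcagGTAA
These tails lie at chr11:120001074-120001104, chr11:120006359-120006403, chr11:120003038-120003065 and chr11:120000587-120000590. Baiap2-202 held 42.4% of Baiap2 TPM in pup 1 and 47.6% in pup 3, Baiap2-201 held 29.1% and 24.0%, Baiap2-205 held 4.62% and 8.47%, and Baiap2-204 held 5.21% and 3.66%. Another complete coding form, Baiap2-203, ends at the same stop codon as Baiap2-202 and held 15.3% in pup 1 and 15.8% in pup 3, so that tail came to 57.8% and 63.5% in all. It led in both pups and the tail of Baiap2-201 followed, whereas the order of the tails of Baiap2-205 and Baiap2-204 differed between the pups.

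The 3 remaining genes stood above the median of the list. Nrgn (neurogranin), a small protein that binds calmodulin in spines, had 153 TPM in pup 1 and 127 TPM in pup 3 (140 ± 18.3 TPM, SD, n = 2), the second highest of the 39. Ctnnd2 (delta-catenin), which links cadherins to the density, had 51.1 and 43.7 TPM. Agrn (agrin), a heparan sulfate proteoglycan best known as the nerve signal that gathers acetylcholine receptors at the muscle synapse, had 53.1 TPM in pup 1 and 40.01 TPM in pup 3.

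Agrin is made with or without small inserts at the sites called y and z, and the neuronal forms with a z insert are the ones active on muscle. In the annotation, the inserts correspond to exons of 12 bases (y) and of 24 and 33 bases (z). They are shown here because they mark neuronal agrin; capitals are the exon and lower case the 15 flanking bases on each side in Agrn-203 (GENCODE M21, mm10, minus strand, 5′ to 3′).
Agrn exon of 12 bases: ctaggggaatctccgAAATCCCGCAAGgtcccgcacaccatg
Agrn exon of 24 bases: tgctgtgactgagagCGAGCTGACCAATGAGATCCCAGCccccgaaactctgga
Agrn exon of 33 bases: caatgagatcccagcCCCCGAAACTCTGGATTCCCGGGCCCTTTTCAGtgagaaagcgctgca
The exons lie at chr4:156169546-156169557, chr4:156168546-156168569 and chr4:156167777-156167809. Agrn-203, which carries all 3, made up 67.3% of the TPM of complete coding Agrn transcripts in pup 1 and 56.6% in pup 3, at 14.2 and 8.18 TPM. Agrn-206, which lacks them, had 6.89 TPM in pup 1 and 4.53 TPM in pup 3. Among complete coding transcripts, forms with and without the 3 exons were thus listed in both pups, and the one with all 3 was higher. Over all transcripts that span it, retained introns included, the 33-base exon was present as a separate exon in 27.15% of the TPM in pup 1 and 20.69% in pup 3, the 24-base exon in 79.15% and 76.28%, and the 12-base exon in 72.57% and 64.24%. Neither Agrn-205 nor the retained intron Agrn-207 has the 33-base exon as a separate exon. Whether they hold its bases inside a longer exon was not examined. The leading Agrn entry was Agrn-205, a retained intron of 2071 nt that holds the 24-base exon, at 51.3% of Agrn TPM in pup 1 and 54.9% in pup 3.

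Ordered by mean level, the 39 genes formed 38 neighbouring pairs, of which 5 were beyond the pup spread. Dlgap4 lay above Nrgn (2.02 times in pup 1 and 2.15 times in pup 3), Lin7c above Abi2 (1.51 and 1.39), Abi2 above Abi1 (1.61 and 1.52), Pick1 above Ctnnd2 (1.26 and 1.18) and Cnksr2 above Grip1 (1.16 and 1.17). The other 33 neighbours did not differ beyond their spread, so ranks from Agrn downwards are mostly not resolved. An SD from so few pups is itself uncertain, so a pair can meet the rule where the pups happen to agree closely. How many pairs would meet it without a true difference was not tested, so the 5 are not shown to be resolved. The lowest 5 were Magi2, Synpo, Agap2, Lrrc7 and Dlg3.

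Within the 10 families of paralogs, 19 of 26 ratios were beyond the pup spread at the gene level and 20 of 26 on long complete coding transcripts. The share of all gene pairs that would meet the rule was not worked out, so these counts are not shown to exceed it. Dlgap1 over Dlgap3 met it on long transcripts at 1.10 times in pup 1 and 1.09 times in pup 3, where the pups agreed closely. On long transcripts 4 pairs had the other direction of the mean: Dlgap1 over Dlgap4, Dlgap3 over Dlgap4 and Shank2 over Shank3, all beyond the pup spread there, and Dlg2 over Dlg4, which was not. At a limit of 80% Shank2 over Shank3 kept the direction it had over all transcripts. The changed direction of all 4 pairs is visible in the plot of paralog ratios, where their points cross the zero line between the panels. Dlgap2 over Dlgap4 stayed below that line in both panels, with a mean log2 ratio of -5.34 over all transcripts and -2.17 on long ones.

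**Figure D3:**
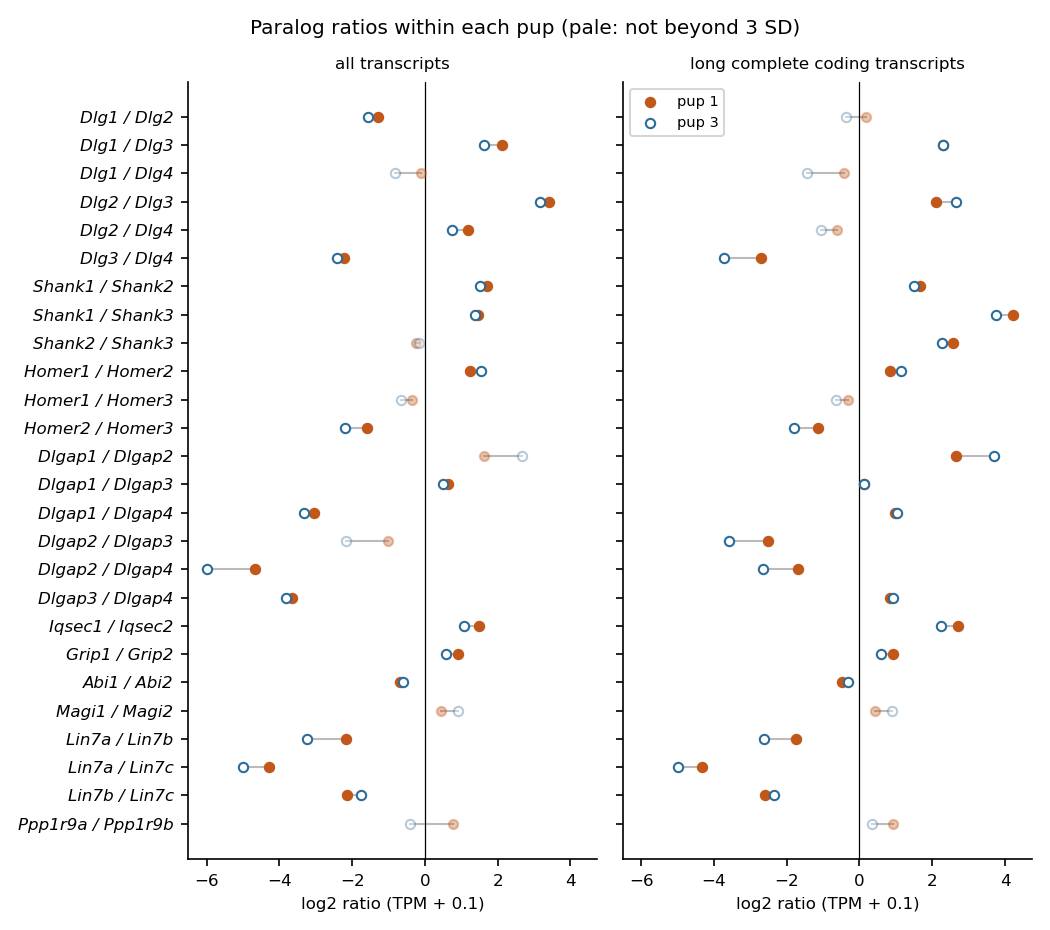
Log2 ratio of paralogs (TPM + 0.1) in pup 1 (filled orange) and pup 3 (open blue), for all transcripts (left) and for long complete coding transcripts (right); pale points mark ratios not beyond 3 SD. On the left 19 of 26 ratios are beyond the spread and on the right 20, and the ratios of Dlgap1 and Dlgap3 over Dlgap4 change side.

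Over the whole list, long complete coding transcripts held a median of 81.9% of a gene's TPM (mean of the pups), more than 80% in 20 genes and under 50% in 11. The 11 were Dlgap4, Agrn, Ppp1r9a, Dlg2, Ppp1r9b, Kalrn, Dlgap2, Shank3, Iqsec2, Synpo and Dlg3. Ctnnd2, Dlgap3, Magi1, Magi2, Sipa1l1, Homer2, Agap2 and Lrrc7 had 100% in both pups. The median level over members was 8.47 TPM on long complete coding transcripts. By that level Lin7c ranked first (148 TPM in pup 1 and 113 TPM in pup 3), ahead of Nrgn (125 and 108 TPM), and Dlgap4 ranked 16. At 1 TPM or more in both pups stood 35 of 39 genes on this scale, the exceptions being Kalrn, Shank3, Synpo and Dlg3. The count was 36 with a limit of 50% and 33 with a limit of 80%. The leading Synpo form has 62.7% of the longest coding length, and at 50% Synpo had 3.39 TPM in pup 1 and 3.07 TPM in pup 3. The leading transcript was the same in both pups in 35 genes and differed in Ppp1r9a, Grip1, Dlgap2 and Dlg3. It was not protein-coding in both pups in Agrn, Dlg2 and Iqsec2. The matching shares over all genes were not worked out for any of these transcript counts, so they are not shown to be particular to scaffold genes. Transcript shares are model estimates from reads that transcripts of a gene have in common, and a TPM share weights short transcripts more than their share of reads does. Coding lengths come from GENCODE M21, where Dlg1-206, Dlg2-209, Dlg4-201, Grip1-201, Homer1-202, Homer1-206, Kalrn-212 and Shank1-203 have another total length than in the deposited tables.

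**Figure D4:**
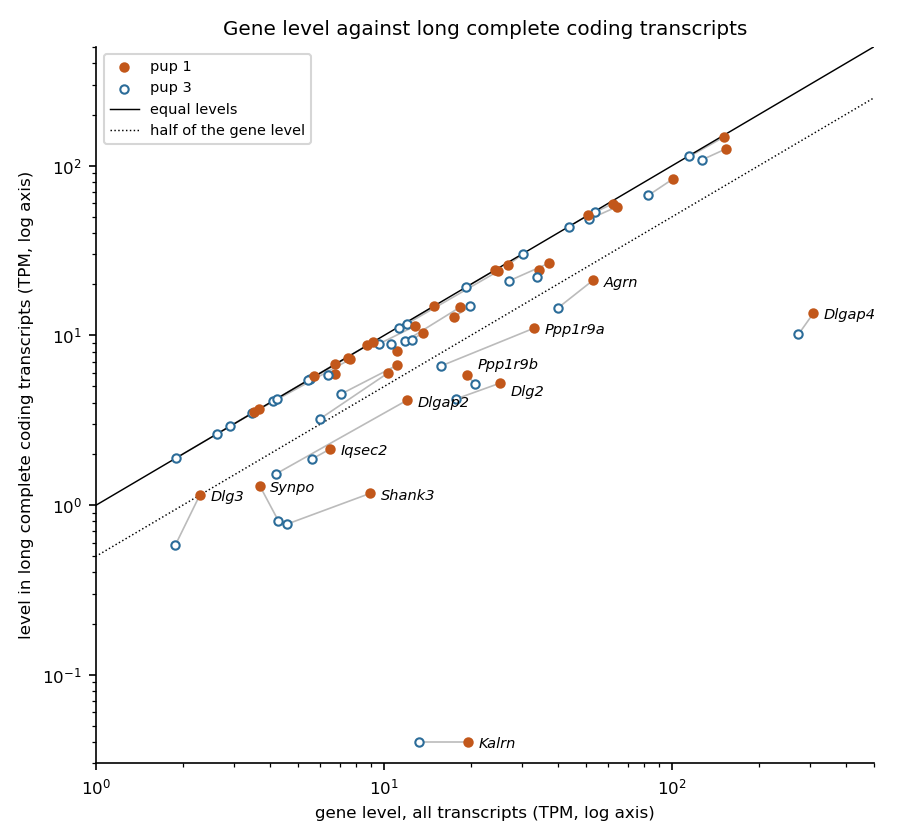
Level of each gene in long complete coding transcripts against its level over all transcripts (TPM, both axes log), pup 1 (filled orange) joined to pup 3 (open blue). Genes with a mean share under 50% are named; Dlgap4 lies far below the line of equal levels at 13.5 and 10.1 TPM, and Kalrn, listed at 0, is drawn at 0.04 TPM.

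Between the pups, 5 scaffold genes differed, all higher in pup 1: Dlgap2 (12.0 TPM in pup 1 and 4.19 TPM in pup 3, 2.82-fold), Magi2 (6.76 and 2.91 TPM, 2.28-fold), Lin7a (7.60 and 3.48 TPM, 2.15-fold), Ppp1r9a (33.2 and 15.7 TPM, 2.11-fold) and Shank1 (24.7 and 12.0 TPM, 2.05-fold). A gene differs here at a mean of 1 TPM or more, a ratio of 2-fold or more on TPM + 0.1 and deposited credibility intervals that do not overlap. By that rule 3.92% of 14890 genes differed, 3.79% higher in pup 1 and 0.128% lower. Most genes had the higher TPM in pup 1: 80.5% of all genes and 35 of the 39. The exceptions among members were Baiap2, Ppp1r9b, Homer3 and Synpo. The median log2 ratio of pup 1 over pup 3 was 0.41 over members and 0.27 over all genes tested.

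TMM scaling on TPM subtracted 0.26 on the log2 scale from the ratio of every gene. Relative to that average shift, 27 of 39 members were higher in pup 1 (51.0% of all genes), their median log2 ratio was 0.15, and Dlgap2 alone among members still differed, against 1.64% of all genes. Each of the 5 kept its direction under all scalings tried. Pup 3 had more of its TPM in mitochondrial genes (5.14% in pup 1 and 6.74% in pup 3) and in the 7SL RNA genes Rn7s1 and Rn7s2 (1.86% and 3.14%). Both erythroid markers were higher in pup 3, summing to 426 TPM in pup 1 and 602 TPM in pup 3. That sum was mostly Hba-a1 (419 and 594 TPM), and the deposited intervals of Alas2 (6.70 and 7.63 TPM) overlapped between the pups. Summed markers of the meninges were at 88.3 TPM in pup 1 and 109.5 TPM in pup 3, with Dcn (41.1 and 66.5 TPM) and Lum (9.69 and 15.4 TPM) higher in pup 3 and Col1a1 (37.6 and 27.6 TPM) higher in pup 1. The part of these RNAs in the shift was not tested.

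The ratio between pups moved with transcript length. Over all genes, the median log2 ratio was 0.06, 0.26 and 0.44 in the lower, middle and upper tertile of effective length, and 28 of 39 members fell in the upper tertile, where their median was 0.42. Of the 5 differing members, 4 lay in the upper tertile of effective length, where 6.35% of all genes differed. Dlgap2 lay in the middle one, where 3.12% of all genes did. In the upper tertile of genomic span lay 30 members with all 5 that differed, and 6.29% of all genes in it differed. After a quadratic fit of the ratio on length across all genes, the members' median was -0.05, beside -0.05 over all genes. Of the 39 members, 17 were then higher in pup 1 (43.0% of all genes), and Dlgap2 alone still differed, against 1.26% of all genes. The common biological coefficient of variation over 16815 genes was 0.170 (edgeR, both pups as 1 group), with trended values between 0.143 and 0.195 at the members' counts.

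**Figure D5:**
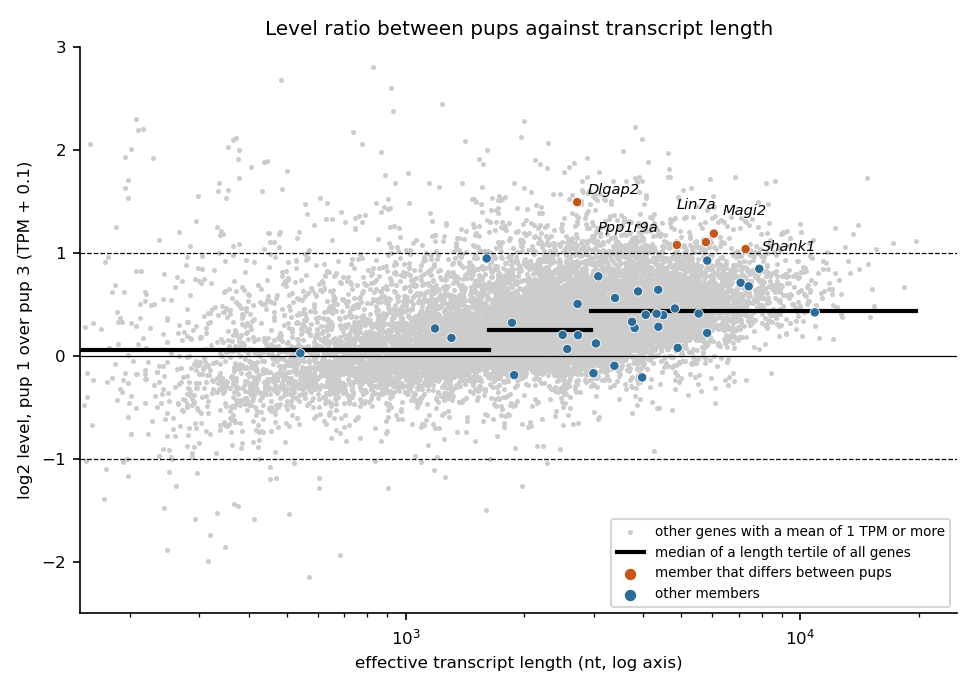
Log2 level of pup 1 over pup 3 (TPM + 0.1) against effective transcript length (nt, log axis) for genes with a mean of 1 TPM or more (grey) and the scaffold genes (blue; orange where they differ and are named). Black bars are the medians of the lower, middle and upper length tertile of all genes, at 0.06, 0.26 and 0.44; dashed lines mark 2-fold.

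Partner genes of the synapse give the setting for these levels. Of 20 postsynaptic receptors and enzymes, 19 were detected, with a median of 27.6 TPM, from Camk2b, a kinase subunit, at 242 TPM in pup 1 and 188 TPM in pup 3 down to Grin2a, an NMDA receptor subunit, at 2.47 and 0.62 TPM. Gria3, Grin2d and Grin2a differed, each higher in pup 1. All 10 genes of the inhibitory postsynapse were detected, with a median of 25.9 TPM; Iqsec3 was the lowest (5.86 TPM in pup 1 and 3.27 TPM in pup 3), and Gabra2, Lhfpl4 and Slitrk3 differed, again higher in pup 1. The 21 presynaptic genes had a median of 41.3 TPM, from Rab3a (584 and 525 TPM) to Bsn (4.77 and 2.47 TPM), with Rims1, Rims2 and Pclo higher in pup 1. The 9 genes of the WAVE complex and spine actin had a median of 67.1 TPM, from Dbn1 (536 and 501 TPM) to Wasf3 (12.2 and 9.19 TPM), and 0 of them differed. The scaffold genes thus had the lowest median, 13.0 TPM, of the 5 lists, which were chosen by hand and were not tested against each other. By the same rules 60.7% of nuclear protein-coding genes were detected. Of all genes tested, 3.79% differed with the higher level in pup 1 and 0.128% with the lower, so most calls in these libraries had that direction.

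Exons of 7 scaffold genes overlapped those of another annotated gene, and in 4 the other gene stood at 1 TPM or more in both pups. Besides Homer3 these were Abi1 (194 nt shared with Pdss1, at 19.5 and 17.7 TPM), Shank1 (339 nt shared with 1700008O03Rik, at 4.10 and 2.77 TPM) and Lin7b (58 nt shared with Mtag2, at 1.65 and 1.94 TPM). All 4 partners lie on the opposite strand, and the overlap was under 5% of exonic length in each gene other than Homer3.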

How the data were processed

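Total RNA-seq of 1 group of 2 animals was analysed, 1 library each. The deposited gene and transcript tables give, per the file headers, expected counts (estimated, not whole), TPM, a posterior mean TPM with credibility bounds (their level is not stated) and, for transcripts, the percent of the gene's TPM. The quantification used mm10 and GENCODE M4, per the deposited notes; the aligner and quantifier are not named, and strand use is likewise not given in the sources used here. Deposited TPM divides by effective length, which weights short transcripts, and the deposited intervals surround the posterior mean TPM, not the TPM used for ratios.

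Identifiers were matched without version to GENCODE M21 (GRCm38, the same build as mm10): 42462 genes were named, and unnamed ones held 0.171% (pup 1) and 0.154% (pup 3) of counts. Of 298 member transcripts 291 were found, 40 of them with another length. Ratios are pup 1 over pup 3 of TPM + 0.1. edgeR 4.0.16 (counts rounded, TMM, minimum count 10, intercept only) gave the coefficient of variation, checked on simulated counts; DESeq2 1.42.0 gave other size factors. Python 3.11.15, pandas 2.3.3, numpy 2.4.6, matplotlib 3.10.9 and R 4.3.3 were used.

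Members, lists and rules were chosen with earlier results of these data known. Values per pup are given for the Dlg, Shank, Homer and Dlgap families, the 5 highest and 5 lowest members, members that differ, the ends of each role group and, of partner lists, the highest, lowest and differing genes (those that differ by name alone); isoforms for Homer1, the Shank and Dlg genes, Kalrn, Agrn and members whose leading transcript changes or is not coding. Other members and forms (Dlgap4, Baiap2) were named after their values were seen. Protein features were not analysed here. The highest gene of the inhibitory list is not reported here.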

Additional observations from a re-analysis of the deposited data

How the results depend on the processing

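Some results moved with the processing. The count of 39 detected members became 22 at 10 TPM, and 29 at 5 TPM. The median level of 13.0 TPM became 15.7 TPM when rescaled to nuclear protein-coding genes and 8.47 TPM on long complete coding transcripts at 65%, 50% or 80% of the longest, limits chosen after the data were seen; with 1 pup left out it ranged between 11.8 and 14.8 TPM, and 39 members were detected in either pup. The 5 members that differed became 13 at 1.5-fold (16.9% of all genes), 0 at 3-fold (0.591%), 2 with a pseudocount of 1 (1.76%), 1 with TMM (1.64%), DESeq2 size factors (1.60%) or the length fit (1.26%), and 2 on library-scaled counts (2.06%). The median log2 ratio of 0.41 became 0.15 with TMM, 0.14 with size factors, 0.23 on library-scaled counts and -0.046 after the length fit. Neighbours beyond the spread were 17 instead of 5 on counts not divided by length. The same leading transcript was found in 21 of the 22 members of 10 TPM or more. Posterior mean TPM, 2 SD and 5 SD left the counts of family ratios and neighbours within 1.5 times. Dlg2 over Dlg4 was no longer beyond the spread with posterior mean TPM, at 5 SD or on counts not divided by length, though its direction held.

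Among paralogs, counts not divided by length reversed Homer1 over Homer2 (log2 -0.44), Homer2 over Homer3 (0.61) and Lin7a over Lin7b (0.68), and turned Shank2 over Shank3 (2.07) and Homer1 over Homer3 (0.17), which were not beyond the spread. Long complete coding transcripts at 65%, 50% and 80% reversed Dlg2 over Dlg4 (-0.84, -0.28 and -0.84), Dlgap1 over Dlgap4 (1.01, 1.14 and 0.22) and Dlgap3 over Dlgap4 (0.88 at each limit), and at 80% Dlgap1 over Dlgap3 (-0.66). Shank2 over Shank3 (-0.21 over all transcripts) was 2.41 at 65% and 50% but -1.10 at 80%, where Shank2-202, at 79.96% of the longest, no longer counted. What lies behind the other changes was not tested.

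Leaving out a pup leaves no spread, so counts that rest on it have no such value. No paired analysis was possible because there is 1 group.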
